A study of Mus musculus with 8 samples.

Results

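GC-rich replication initiation sites (ISs) that lie far from promoters were described from short nascent strand sequencing (SNS-seq) of the mouse lymphoma line CH12, which is of B cell origin. An IS was a member of this class if it lay on one of 16 autosomes (all but chromosomes 10, 15 and 16), had a GC content of 55% or more in the mm9 sequence and overlapped no protein-coding exon. It also had to lie more than 10 kb from the start (TSS) of every protein-coding transcript, with at least 1 protein-coding gene starting within 500 kb of its midpoint. The rule used sequence and annotation only, and no measured density. An IS is called higher or lower below where its density changed by more than 1.5-fold. It took 2116 of the 39116 ISs in the table of Rif1KO against WT cells and 3075 of the 129937 ISs in the table of Rif1KO_shMcm6 against Rif1KO_shLacZ cells. On the same 16 autosomes these tables held 31414 and 108860 ISs, and those numbers are the background used below.

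In mammalian cells, replication starts at many places where MCM helicase complexes have been loaded onto DNA, and only part of the loaded complexes fire in an S phase. Initiation is known to favour GC-rich DNA, CpG islands and active promoters, and a G-rich motif able to fold into a G-quadruplex is common at mapped sites. GC-rich DNA away from promoters is therefore a setting in which base composition can be looked at without the gene start itself. RIF1 is a chromatin protein known for setting replication timing, and MCM6 is a subunit of the MCM helicase.

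Of the 8 libraries, 2 came from each of 4 groups. WT and Rif1KO differ in the knockout of Rif1. Rif1KO_shLacZ and Rif1KO_shMcm6 both lack Rif1 and carry a hairpin, delivered by lentivirus, against LacZ as the control or against Mcm6. All cells were stimulated with IL4, CD40 and TGF beta. Which knockout clone was used for SNS-seq is not given in the sources used here, and the depth of MCM6 depletion was not analysed here. Each deposited table has 1 value per condition with both libraries pooled, so no value below has a replicate error and no test between conditions was possible. Errors printed for single ISs are counting standard errors from the reads behind the value, and PCR copies among those reads make them too small. The reads inside ISs numbered 3350255 in WT, 3724571 in Rif1KO, 21071351 in Rif1KO_shLacZ and 23602750 in Rif1KO_shMcm6. IS density is given as log2 RPM, that is, reads per 1000000 reads inside the ISs of the same table, and densities were compared only within a table.

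The sequences below were read from mm9 and show the kinds of DNA in this class. Each run is the central 120 bases of an IS, 5′ to 3′ on its purine-richer strand. In the first 4, which come from the MCM6 table, capitals mark AGCAGG or AGGAGG. The first 2 belong to the ISs with the highest increases after MCM6 depletion among members of at least median density, and the next 2 to ISs with the strongest decreases. In the last 4, from the Rif1KO table, capitals mark CG. They are the 2 lowest members of that table by the same rule and 2 of its densest.
Sema3d intron, increased, chr5:12481238-12481357, plus strand: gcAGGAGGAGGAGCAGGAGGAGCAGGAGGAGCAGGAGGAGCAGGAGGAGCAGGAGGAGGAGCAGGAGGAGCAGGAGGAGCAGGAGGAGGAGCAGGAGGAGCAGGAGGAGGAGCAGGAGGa
between genes near Gm9932, increased, chr5:100652071-100652190, plus strand: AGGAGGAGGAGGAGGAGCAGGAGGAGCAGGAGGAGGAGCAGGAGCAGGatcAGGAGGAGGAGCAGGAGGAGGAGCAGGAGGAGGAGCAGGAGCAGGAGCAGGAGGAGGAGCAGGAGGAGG
upstream of Laptm5, decreased, chr4:130432013-130432132, minus strand: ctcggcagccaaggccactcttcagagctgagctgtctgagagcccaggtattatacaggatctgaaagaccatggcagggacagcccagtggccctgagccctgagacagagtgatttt
Runx2 intron, decreased, chr17:44739322-44739441, minus strand: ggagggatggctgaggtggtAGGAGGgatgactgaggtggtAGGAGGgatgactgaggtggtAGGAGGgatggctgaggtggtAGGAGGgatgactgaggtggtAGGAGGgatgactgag
Ttbk1 intron, decreased in Rif1KO, chr17:46592103-46592222, plus strand: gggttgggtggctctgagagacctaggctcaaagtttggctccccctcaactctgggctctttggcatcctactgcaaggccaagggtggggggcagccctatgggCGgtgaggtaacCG
Macrod1 intron, decreased in Rif1KO, chr19:7240255-7240374, plus strand: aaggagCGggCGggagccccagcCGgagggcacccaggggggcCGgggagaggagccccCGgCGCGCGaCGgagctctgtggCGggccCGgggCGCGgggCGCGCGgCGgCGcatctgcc
Unc45b intron, dense in both tables, chr11:82744522-82744641, minus strand: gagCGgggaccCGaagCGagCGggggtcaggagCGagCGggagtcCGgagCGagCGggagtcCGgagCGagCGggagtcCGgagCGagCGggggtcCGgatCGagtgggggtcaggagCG
upstream of Rasgrf1, dense in both tables, chr9:89775552-89775671, minus strand: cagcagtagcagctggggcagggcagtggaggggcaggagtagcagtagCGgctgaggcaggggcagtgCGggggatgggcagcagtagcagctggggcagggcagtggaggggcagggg

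Repeated sequence was common among members. In 37.0% of members of the Rif1KO table, at least 20% of the IS's own 10-mers occurred more than once in it, against 8.80% of all ISs on the 16 autosomes. In the MCM6 table these shares were 27.8% and 7.28%. A purine content of 80% or more on 1 strand (A and G there, C and T on the other) was found in 9.78% of members against 1.34% of all ISs in the first table, and in 5.17% against 0.846% in the second. GGGCGG, searched on both strands, was present in 29.3% and 31.7% of members against 20.3% and 16.3% of all ISs. The E-box CACGTG was present in 5.95% and 9.30% of members against 5.05% and 5.85%. A G-quadruplex-type match, 4 runs of GGG with 1 to 7 bases between them on either strand, was no more common than elsewhere, at 77.5% and 75.5% of members against 77.7% and 77.1%.

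Members differed in these features from GC-rich ISs at promoters, which lay within 1 kb of a protein-coding TSS and numbered 1324 and 2212. A CpG observed/expected ratio of 0.6 or more, a usual criterion for a CpG island, was met by 3.59% of members and 61.4% of promoter ISs in the Rif1KO table and by 3.09% and 41.0% in the MCM6 table. GGGCGG was present in 81.6% and 74.3% of the promoter ISs. Repeats as defined above were rare there, in 2.49% and 2.40%. Members had a median width of 455 bp in the Rif1KO table and 576 bp in the MCM6 table, and a median distance to a protein-coding TSS of 37.4 and 37.9 kb. Of the members, 39.9% in each table lay inside a protein-coding gene, that is, in introns.

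Members had a higher density than ISs in general. Density here counts the reads of a whole IS and was not divided by its width. The median density of members in log2 RPM was 4.65 in WT (quartiles 4.26 and 5.16) against 4.45 over the 16 autosomes, and 4.56 in Rif1KO against 4.44. It was 2.88 in Rif1KO_shLacZ (quartiles 2.30 and 3.53) against 2.75, and 2.82 in Rif1KO_shMcm6 against 2.76. In each of the 4 groups members therefore sat between GC-rich promoter ISs, whose medians were 5.0, 4.76, 3.05 and 2.95 in the same order, and far ISs of lower GC content, whose medians were 4.39, 4.41, 2.74 and 2.75. Members were also found in both lists of a table about as often as promoter ISs, with 61.8% called in both WT and Rif1KO, against 63.4% of promoter ISs and 53.1% of all ISs. Between the hairpin groups 63.8% were called in both, against 64.4% and 66.0%.

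Without RIF1, members lost density slightly as a class. The median log2 fold change of Rif1KO over WT was -0.07 (quartiles -0.22 and 0.06, n = 2116) against 0.01 over all ISs of the 16 autosomes, and 63.9% of members were below 0 against 48.6%. The shift lay between those of the other classes, with -0.19 at GC-rich promoter ISs and 0.04 at the 19056 far ISs under 55% GC. On every one of the 16 chromosomes the median of members was below 0 (range -0.14 to -0.02), below that of far ISs under 55% GC and above that of GC-rich promoter ISs. Past the 1.5-fold threshold used in the study, 52 members were lower (2.46%, 95% Wilson interval 1.88 to 3.21%, which covers the counting of ISs only) and 3 were higher (0.142%, interval 0.0482 to 0.416%). Over all ISs of the 16 autosomes 1.35% were lower and 0.945% were higher. With the lower quartile of mean density removed, 1.28% of members were lower, close to the 0.938% of all ISs under the same filter. Among GC-rich promoter ISs, 9.14% were lower. The lower members were mostly ISs of the WT list alone (46 of the 52). Of the 1307 members called in both conditions 0.459% were lower, against 0.165% of far ISs under 55% GC and 2.62% of promoter ISs called in both.

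**Figure D1:**
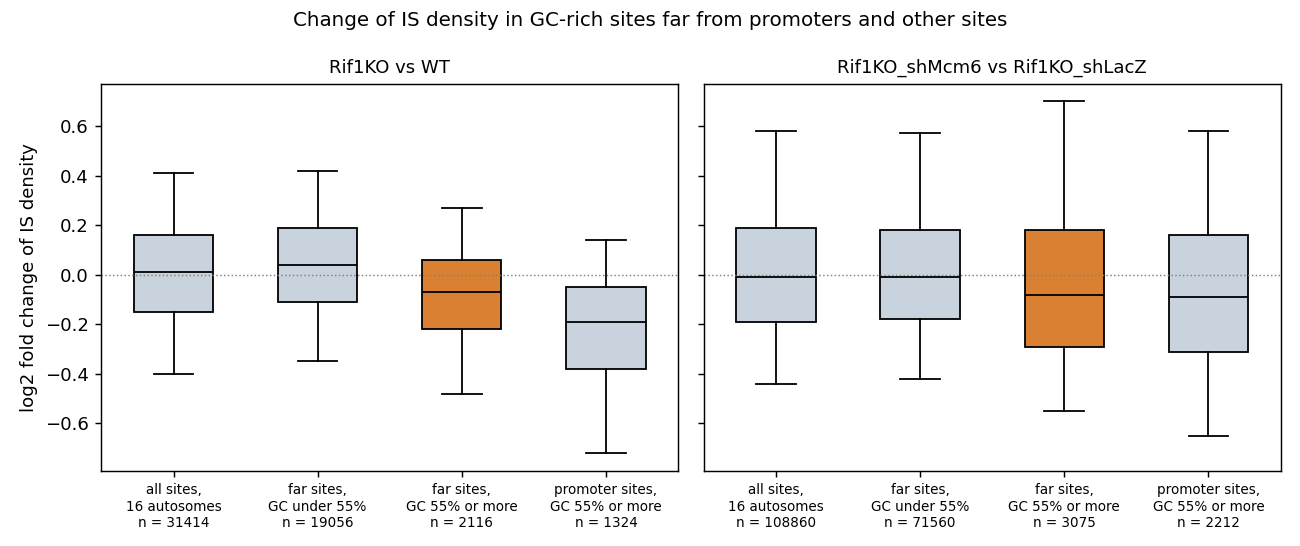
Log2 fold change of IS density (y axis) for 4 classes of IS in Rif1KO against WT (left) and Rif1KO_shMcm6 against Rif1KO_shLacZ (right); the line is the median, the box the quartiles and the whiskers the 5th and 95th percentiles over ISs. GC-rich far ISs (orange) had medians of -0.07 and -0.08, and their upper whisker reached 0.70 after MCM6 depletion.

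The shift was smaller against the neighbourhood. Each member was set against the median of the non-member ISs within 500 kb, where there were at least 3. Members were lower by a median of 0.04 on the log2 scale in Rif1KO against WT (a member minus local difference of -0.04, n = 2099). Of them, 56.4% were below these neighbours. The median change was -0.03 where 1 to 5 protein-coding genes started within 500 kb, -0.07 with 6 to 15 genes and -0.10 with more. Members inside protein-coding genes had a median of -0.08 and members between genes -0.06, so position relative to genes moved the median less than gene number did.

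CpG density separated the members further. The 76 members with a CpG observed/expected ratio of 0.6 or more had a median change of -0.22 in Rif1KO, and 6 of them (7.89%) were past the threshold downwards. The other 2040 members had a median of -0.06 and 2.25% were lower. Over all ISs of the 16 autosomes 1.35% were lower, a share not split by CpG density here. Among members of 65% GC or more, the 30 CpG-dense ones had a median of -0.28 and the 51 others -0.04. At promoters of the same GC content the medians were -0.28 for 490 CpG-dense ISs and -0.20 for 40 others. CpG-dense members thus had the same median as CpG-dense promoter ISs in that range of GC content, though no protein-coding TSS lay within 10 kb. In the range of 60 to 65% GC the medians were -0.27 for 22 CpG-dense members and -0.09 for 298 others. Of these 22 members 1 was above 0. At 55 to 60% GC the split was smaller, with -0.11 for 24 CpG-dense members and -0.06 for 1691 others. Members with GGGCGG had a median of -0.11 (n = 619) and members without it -0.06. After MCM6 depletion the medians were -0.05 for the 95 CpG-dense members and -0.08 for the rest.

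**Figure D2:**
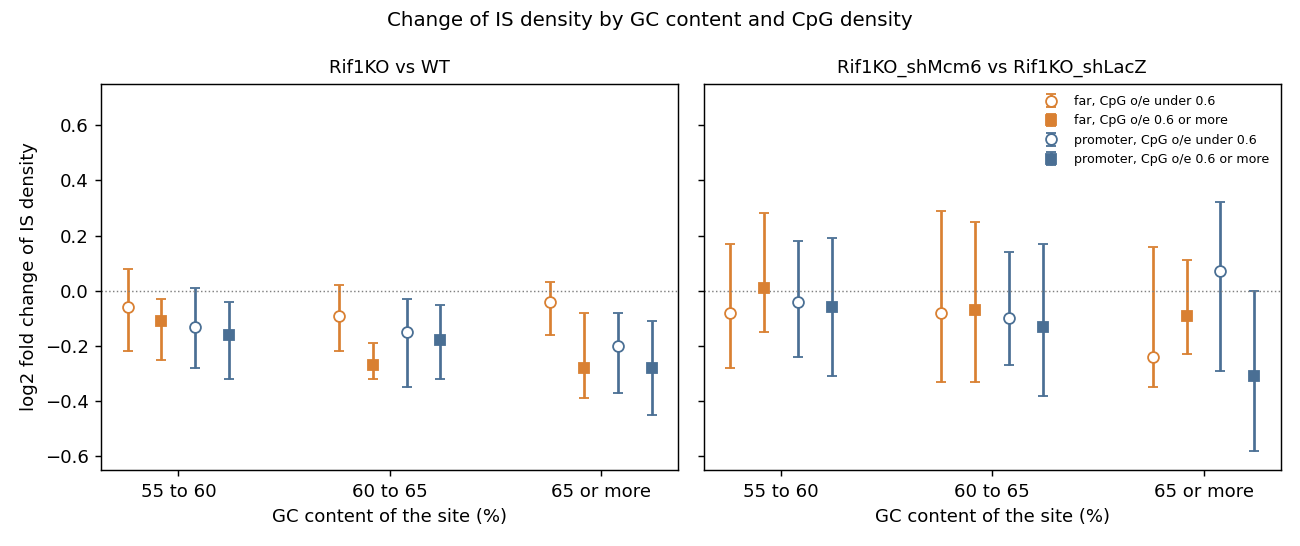
Median log2 fold change (points) with quartiles over ISs (bars) by GC content of the IS, for members (orange) and GC-rich promoter ISs (blue), split by a CpG observed/expected ratio under 0.6 (open circles) or of 0.6 or more (filled squares). In Rif1KO against WT (left) CpG-dense members of 65% GC or more had a median of -0.28, the same as CpG-dense promoter ISs.

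Of the 4 members with the strongest losses in Rif1KO cells whose mean density over both conditions reached the median of the table, 3 lay in introns. The Ttbk1, Atg7 and Gm5800 ISs passed that filter through WT, where they are high. In Ttbk1, which encodes a kinase of tau and tubulin, the IS at chr17:46591915-46592411 had 107 WT and 63 Rif1KO reads, or 31.9 and 16.9 RPM (log2 fold change -0.92, counting SE 0.23). In Macrod1, which encodes a hydrolase of ADP-ribose marks, the IS at chr19:7239899-7240731 had 210 and 128 reads, or 62.7 and 34.4 RPM (-0.87, SE 0.16). This IS has a GC content of 78.9% and a CpG observed/expected ratio of 0.948, and its central bases are printed above. The third was in Atg7, an autophagy gene, at chr6:114803028-114803502 (-0.84, SE 0.24), and the fourth lay between genes near Gm5800 at chr14:52357252-52357847 (-0.81, SE 0.22). All 4 were in the WT list of ISs and not in the Rif1KO list. Of the 4, 3 had a partner IS in the MCM6 table, with changes of -0.01 (SE 0.12), 0.09 (SE 0.13) and 0.22 (SE 0.12) at the Ttbk1, Atg7 and Gm5800 ISs.

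Gains in Rif1KO were smaller. Of the 4 highest members of at least median density, 3 are given. They lay near Shq1, a gene for assembly of small nucleolar RNPs, at chr6:100446655-100447259 (70 and 114 reads, 0.55, SE 0.22), near Pitpnm3 (82 and 131 reads, 0.52, SE 0.20) and near Edn3, an endothelin gene (75 and 114 reads, 0.45, SE 0.21). The Shq1 IS passed the density filter through Rif1KO, where it is high, with 4.39 log2 RPM in WT against the median of 4.45. None of the 4 reached 1.5-fold. The 3 members that did had fewer reads, and 2 of them are named here after their values were seen. They lay upstream of Mtr in an intron of Actn2 (21 and 43 reads, 0.88, SE 0.38) and near Prdm8 (38 and 64 reads, 0.60, SE 0.30). Each of the 3 had a purine share of over 70% on 1 strand and was called in Rif1KO only.

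After MCM6 depletion the members spread in both directions around a slightly lower median. The median log2 fold change of Rif1KO_shMcm6 over Rif1KO_shLacZ was -0.08 (quartiles -0.29 and 0.18, n = 3075), against -0.01 over all ISs of the 16 autosomes. Past 1.5-fold, 216 members had gained (7.02%, interval 6.17 to 7.98%) and 120 had lost density (3.90%, interval 3.27 to 4.65%). Over all ISs of the 16 autosomes 4.82% were higher and 1.5% lower, and among far ISs under 55% GC 4.72% and 1.24%. Members were thus past the threshold more often than the background in both directions at these values. On log2(RPM + 1) the shares were smaller, with 5.33% of members higher and 1.89% lower, against 2.95% and 0.559% of all ISs on that scale. Of the 1963 members called in both conditions 3.77% were higher and 2.14% lower, against 1.27% and 0.622% of far ISs under 55% GC called in both. At GC-rich promoters losses outnumbered gains, with 6.87% lower and 4.88% higher. The median of members was below 0 on 15 of 16 chromosomes (range -0.14 to 0.01). Against non-member ISs within 500 kb the median difference was -0.02 (n = 3073).

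The gains lay largely in purine-rich DNA. Of the 216 members that were higher, 128 (59.3%) had 70% or more purine on 1 strand, against 488 of all 3075 members (15.9%). The median change was -0.12 in 1565 members with 50 to 60% purine, -0.13 in 1022 members with 60 to 70%, 0.12 in 329 members with 70 to 80%, 0.45 in 122 members with 80 to 90% and 0.64 in 37 members with 90% or more. At 80% or more, 71 of 159 members were higher (44.7%) and 0 were lower, which allows a share of lower members of up to 1.89%. Their median change was 0.50 (quartiles 0.19 and 0.99), and 140 of the 159 were above 0. On every one of the 16 chromosomes, with 5 to 16 such members each, their median was above 0 (range 0.20 to 1.18). This pattern was noticed in these values, so it is a description of them. In members under 70% purine, 3.40% were higher and 4.21% lower, with a median of -0.12.

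**Figure D3:**
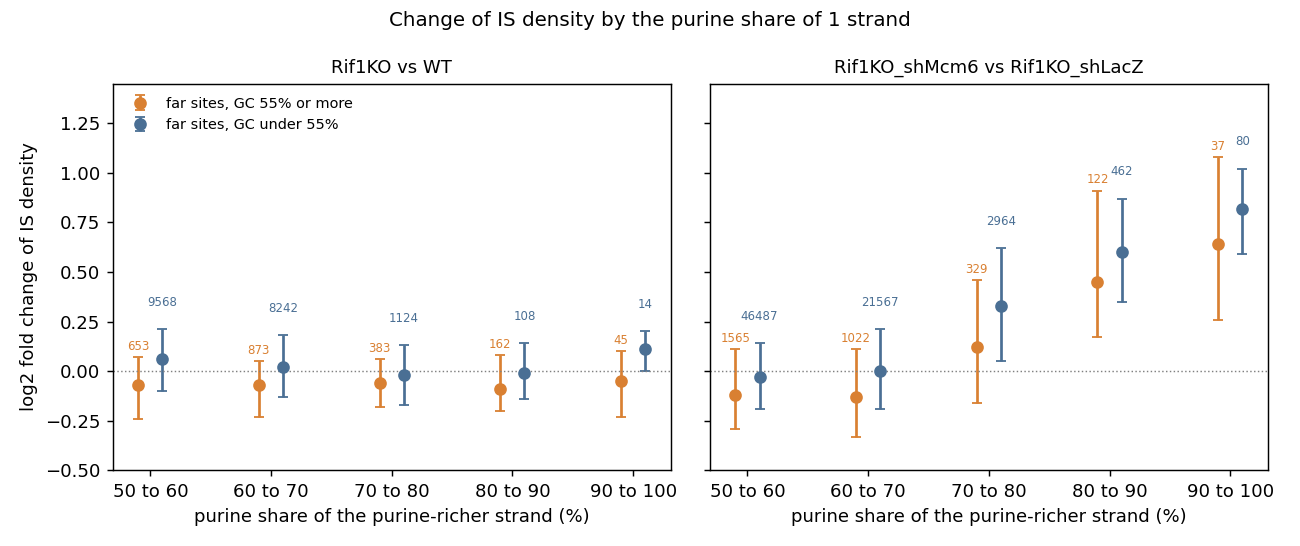
Median log2 fold change (points) with quartiles over ISs (bars) against the purine share of the purine-richer strand, for members (orange) and far ISs under 55% GC (blue); the small numbers give the ISs in each bin. After MCM6 depletion (right) medians of members rose from -0.12 at 50 to 60% purine to 0.64 at 90% or more, and in Rif1KO against WT (left) they stayed between -0.09 and -0.05.

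The same order was seen at lower GC content. Far ISs under 55% GC had medians of -0.03 at 50 to 60% purine, 0.33 at 70 to 80%, 0.60 at 80 to 90% and 0.82 at 90% or more, and of the 542 with 80% or more purine 298 were higher and 0 lower. Repeats of other composition had lower values. Members with repeated 10-mers but under 70% purine had a median of -0.18 (n = 431, 5.57% higher), against 0.27 for repeated members of 70% or more purine (n = 425). Without repeated 10-mers, the 63 members of 70% or more purine had a median of 0.10. ISs enter the table through a peak in either condition, and 37.1% of the members with 80% or more purine were called in Rif1KO_shMcm6 only, against 21.4% of all members. The 72 called in both conditions had a smaller median, 0.31.

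Gene-poor surroundings went with higher values as well. Members with 1 to 5 protein-coding genes starting within 500 kb had a median of 0.05 and 15.7% were higher, against -0.14 and 3.47% with more than 15 genes. Over all ISs of the 16 autosomes 4.82% were higher. That share was not split by gene number here, so this order is not read as particular to members. Within members of 70% or more purine the medians were 0.41, 0.19 and 0.02 for 1 to 5, 6 to 15 and more genes. Within members of under 70% purine they were -0.05, -0.12 and -0.15. At each gene number the purine-rich members were higher. Against their own non-member neighbours within 500 kb the members with 80% or more purine were higher by a median of 0.52 (n = 159), and 91.2% of them were above the neighbours' median.

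The strongest rise was in members with an AGCAGG repeat, most of which held AGGAGG repeats too. Of 12 units of 6 bases that were tandemly repeated in at least 15 members, AGCAGG had the highest median. It was counted where the unit, in any rotation and on either strand, was directly followed by itself at 12 or more start positions. It was repeated in 59 members (1.92%), against 0.0946% of all ISs on the 16 autosomes. Their density was 2.98 (log2 RPM, quartiles 2.42 and 3.56) in Rif1KO_shLacZ and 4.35 (quartiles 3.68 and 4.85) in Rif1KO_shMcm6. The quartile ranges of the conditions did not overlap. The median fold change was 1.38 (quartiles 0.82 and 1.68), 51 of the 59 were higher (86.4%), 0 were lower, and 57 were above 0. The 2 below 0, named after their values were seen, lay near Lbx1 (-0.15, SE 0.11) and near Gm8910 (-0.22, SE 0.12), with 64.3% and 52.2% purine. The 34 called in both conditions had a median of 1.19. The 129 members of 80% or more purine without this repeat had a median of 0.37. AGCAGG members had a median of 1.28 at 70 to 80% purine (n = 21, 18 higher). The 8 with under 70% purine, which include both of those below 0, had a median of 0.69, with 5 higher.

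Other units went with smaller values. The 111 members with AGGAGG repeats had a median of 0.56, those that also held AGCAGG repeats included. Members with AGCAGG but not AGGAGG repeats were not examined, so the 2 units are not fully separated. Members with AGGAGG but not AGCAGG repeats had a median of 0.06 (n = 64), with 13 higher and 1 lower. Members with AAGGGG repeats had 0.42 (n = 24, 11 higher), AGAGGG 0.24 (n = 79, 19 higher) and AGAGAG 0.14 (n = 110, 16 higher). Other purine-rich units were near 0, with 0.05 for AGGGGG (n = 61, 8 higher), 0.07 for AGAGGC (n = 52, 1 higher) and -0.02 for AGGGGC (n = 22, 4 higher). Units rich in C on the strand that carries A were below 0, with -0.22 for ACCCCC (n = 45, 0 higher) and -0.13 for ACCACC (n = 33, 3 higher). On its other strand ACCCCC is purine-rich as well (GGGGGT). Runs of G, which are purine only, were also below 0. Counted as CCCC they had -0.20 (n = 108, 1 higher and 6 lower), and as CCCCC -0.22 (n = 30, 0 higher and 2 lower). Purine-rich units thus did not all rise. The alternating unit ACACAC, with purine and pyrimidine in equal parts, had a median of 0.03 (n = 103, 5 higher). An IS can hold several units, so these sets overlap.

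**Figure D4:**
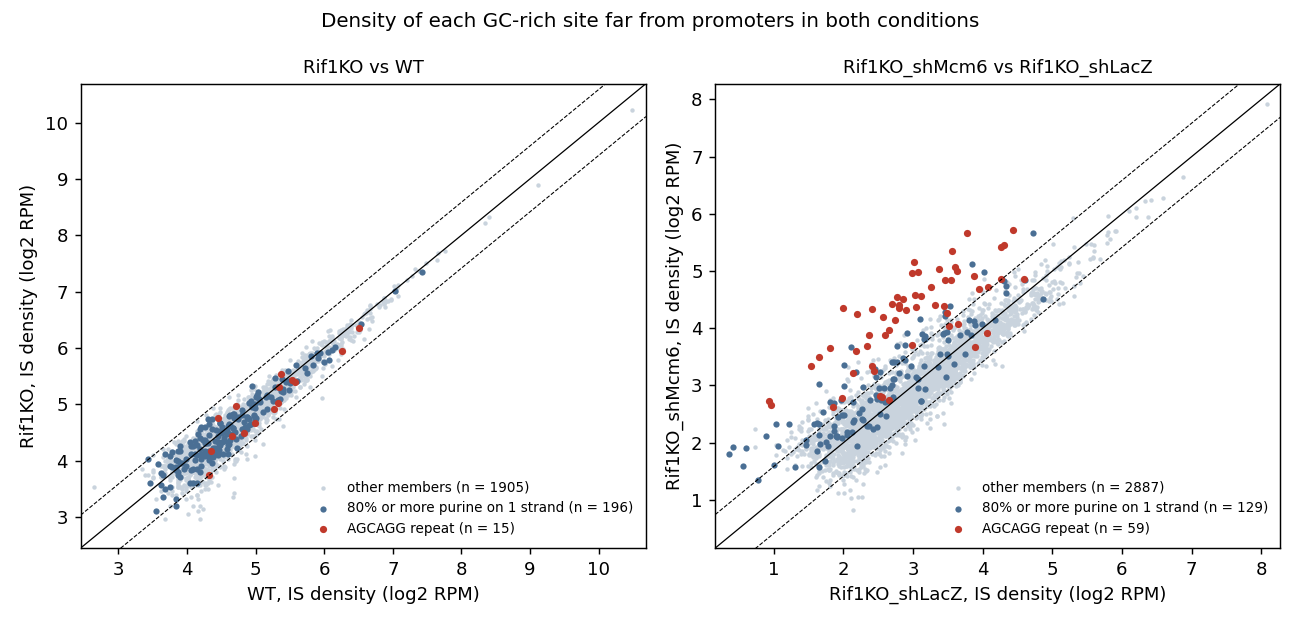
Density of every member in the control (x axis) and treated condition (y axis), log2 RPM, for the Rif1KO table (left) and the MCM6 table (right); the solid line marks equal density and the dashed lines 1.5-fold. After MCM6 depletion 51 of 59 members with an AGCAGG repeat (red) lie above the upper dashed line, and in Rif1KO against WT 0 of 15 do.

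The 4 members with the highest gains among those whose mean density over both conditions reached the median of the table all held this repeat. The ISs near Tbc1d5 and Dsc3 passed that filter through the treated condition, with 2.0 and 2.19 log2 RPM in the control. The IS at chr17:51098712-51100008 in an intron of Tbc1d5, which encodes a Rab GTPase-activating protein, had 84 Rif1KO_shLacZ and 484 Rif1KO_shMcm6 reads, or 3.99 and 20.5 RPM (log2 fold change 2.36, SE 0.17). It is 92.6% purine on the plus strand. The IS at chr5:12480767-12481828 in an intron of Sema3d, a secreted axon guidance protein, had 170 and 842 reads, or 8.07 and 35.7 RPM (2.14, SE 0.12). It was near the limit for this repeat, with 13 start positions of AGCAGG and 18 of AGGAGG. An IS 165 kb from Dsc3, a desmosomal cadherin gene, had 96 and 451 reads (2.07, SE 0.16), and the IS near Gm9932 at chr5:100651537-100652725 had 167 and 737 reads (1.98, SE 0.12). Of the 4, only the Sema3d IS was in the Rif1KO_shLacZ list, and all were in the Rif1KO_shMcm6 list. Each was also an AGCAGG member and held 0 G-quadruplex-type matches, as did most of the AGCAGG members, of which 16.9% had such a match.

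Among members that passed the same density filter, the 4 strongest losses after MCM6 depletion held no AGCAGG repeat. Of these, all but the Runx2 IS passed through the control, where they are high. An IS upstream of Laptm5, a lysosomal protein gene of blood cells, at chr4:130431617-130432529 fell from 229 to 119 reads, or 10.9 to 5.04 RPM (-1.11, SE 0.16). The IS upstream of Zfp704, a zinc finger gene, at chr3:9636809-9637275 fell from 199 to 113 reads (-0.98, SE 0.17). An intronic IS of Runx2, the transcription factor of bone formation, at chr17:44738990-44739773 fell from 409 to 238 reads (-0.94, SE 0.12). It is a repeat with 72.4% purine, in which AGGAGG recurs with other bases between, as its run above shows. The fourth, near Ggnbp1 at chr17:27177967-27178608, had -0.91 (SE 0.16). Among the 120 members that were lower, 11 (9.17%) had 70% or more purine, and 0 had an AGCAGG repeat.

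G-quadruplex-type matches divided the members in another way. After MCM6 depletion 5.77% of the 2322 members with a match were higher and 2.84% lower, against 10.9% and 7.17% of the 753 without. Over all ISs of the 16 autosomes 4.82% were higher and 1.5% lower. Those shares were not split by match here, so the split is not read as particular to members. Within members of under 70% purine, 3.23% of those with a match were higher and 3.18% lower, against 3.97% and 7.60% without. Over all ISs of the 16 autosomes 1.35% were lower in Rif1KO against WT. Of the members there, 1.77% with a match were lower and 4.83% without. Their median changes in Rif1KO were -0.06 and -0.10. Members without a match were less dense in Rif1KO_shLacZ (2.61 against 2.97 log2 RPM) but not in WT (4.67 against 4.63). The part of density in this difference was not tested.

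In Rif1KO against WT purine-rich members had nearly the same median as the rest. The share of them that was lower was smaller, on few ISs. The 207 members with 80% or more purine had a median of -0.08, and the other 1909 members -0.07. Of the 207, 1 was lower (0.483%), against 51 (2.67%) of the others. Over all ISs of the 16 autosomes 1.35% were lower and 0.945% higher. With counts this small the difference was not tested. At 70% or more purine 5 of 590 were lower (0.847%), against 3.08% under 70%, and all 3 higher members were among the 590. The 15 members with an AGCAGG repeat had a median of -0.18 (quartiles -0.31 and -0.07), and 12 of them were below 0. They ranged from -0.58 (SE 0.27) at an IS in an intron of Csmd2 to 0.32 (SE 0.22) at one near Glis3. Of the members here, 0.709% had the repeat, and none of the 15 was past the threshold (0 of 15, which allows a share of lower members of up to 20%).

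The same ISs could be found in both tables where a member overlapped exactly 1 IS of the other table. Of the members, 860 were paired in this way with a member of the other table, which is 40.6% of those in the Rif1KO table and 28.0% of those in the MCM6 table. Their median change was -0.08 in Rif1KO and -0.17 after MCM6 depletion, against 0.01 and -0.09 for all 25514 ISs paired in this way on the 16 autosomes. Below 0 in both were 425 members (49.4%), against 33.3% of all paired ISs. The fold changes of the members were nearly unrelated, with a Spearman's rho of 0.0492 (0.117 for all paired ISs), as a description over ISs that share libraries within each table. The 32 with 80% or more purine had medians of -0.10 in Rif1KO and 0.25 after MCM6 depletion, and 18 of them were below 0 in the first and above 0 in the second. For the 11 with an AGCAGG repeat the median density went from 4.98 in WT to 4.76 in Rif1KO, and in the other table, which has its own scale, from 3.65 in Rif1KO_shLacZ to 4.69 in Rif1KO_shMcm6. Of these, 7 were higher after MCM6 depletion, and 0 were past the threshold in Rif1KO. Over all 25514 paired ISs 227 were higher after MCM6 depletion, and in Rif1KO 237 were higher and 286 lower, so a count of 0 among 11 is not read as a result. The 712 with under 70% purine had medians of -0.08 and -0.20.

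**Figure D5:**
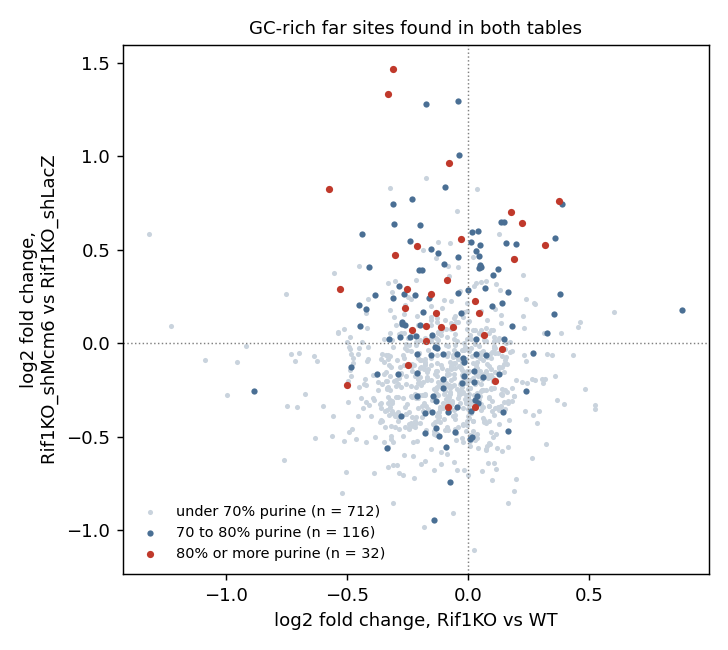
Log2 fold change in Rif1KO against WT (x axis) and in Rif1KO_shMcm6 against Rif1KO_shLacZ (y axis) for the 860 members found in both tables, by the purine share of 1 strand. Of the 32 with 80% or more purine (red), 26 lie above 0 on the y axis, and they spread to both sides of 0 on the x axis.

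The densest members lost density by less than 1.5-fold within their own table. On chromosome 17 at 39980014 to 39983717, near the non-coding gene AY036118, density was 10.49 in WT and 10.22 in Rif1KO (log2 RPM, fold change -0.28, SE 0.03). The next IS, at 39984271 to 39985717, had 9.12 and 8.90. An IS that overlaps both in the MCM6 table had 8.08 and 7.92. The repeat in an intron of Unc45b, a myosin chaperone gene, had 8.40 and 8.33 in the Rif1KO table (chr11:82743460-82745703) and 6.87 and 6.65 in the MCM6 table. Upstream of Rasgrf1, an imprinted gene with a known repeat at this position, the IS at chr9:89774631-89776592 had 8.35 in WT and 8.21 in Rif1KO (-0.13, SE 0.06), and 6.58 and 6.28 (-0.31, SE 0.05) in the hairpin groups. The fourth densest member of the MCM6 table lay near Ttr and had 6.42 and 6.25 (-0.17, SE 0.05). Its partner in the Rif1KO table was higher by 0.08 (SE 0.08), with 535 and 629 reads. The losses near AY036118 in Rif1KO and at Rasgrf1 after MCM6 depletion were as large as the lower quartile of all members or larger. Without an input library, differences in DNA content between ISs or conditions stay in these values, and they were not examined.

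Of a list of 30 genes of B cell identity and signalling, 7 were the nearest protein-coding gene of a member in the Rif1KO table (12 ISs) and 5 in the MCM6 table (11 ISs). None of these ISs was past 1.5-fold, in sets too small to set against the shares of all members. Their changes ranged from -0.35 to 0.19 in Rif1KO (median -0.14, against -0.07 for all members) and from -0.53 to 0.19 after MCM6 depletion (median -0.16, against -0.08). The densest was the IS at chr8:123288786-123289529, downstream of the TSS of Irf8, a transcription factor of B and myeloid cells. It had 75.8 RPM in WT and 59.6 RPM in Rif1KO (-0.35, SE 0.13), and in the hairpin groups 16.3 and 14.6 RPM (-0.16, SE 0.11). An IS in an intron of Nfkb1 had 40.3 and 41.6 RPM (0.05, SE 0.17), and in the hairpin groups a member 29.3 kb from its TSS had 12.1 and 9.79 RPM (-0.31, SE 0.13). In the Rif1KO table an IS near Cd83, an activation marker, had 47.5 and 41.9 RPM, and one near Ccr7, a chemokine receptor, had 30.4 and 27.9 RPM. In the MCM6 table an IS near Pax5, which maintains B cell identity, had 10 and 8.47 RPM (-0.24, SE 0.14).

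Values just inside and just outside the limits of the class were as follows. In Rif1KO against WT, the 542 members of 55 to 56% GC had a median of -0.04, and the 618 otherwise equal ISs of 54 to 55% had -0.05. After MCM6 depletion these medians were -0.07 and -0.10. The 112 members 10 to 12 kb from a TSS had a median of -0.05, and the 148 ISs at 8 to 10 kb had -0.10, while in the MCM6 table these were -0.17 and -0.11.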

How the data were processed

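SNS-seq libraries of CH12 cells were made from size-selected nascent DNA treated with lambda exonuclease. Per the submitters' processing notes, the authors used Trim Galore 0.6.4 with cutadapt 2.6, Bowtie 1.2.3, bedtools and mm9. Following the methods, they kept unique alignments, called peaks per replicate without an input library, intersected the replicates' peaks, dropped peaks outside clusters and merged the peak sets of the conditions compared. Unique alignment removes reads that fit several repeats, and without an input differences in DNA content stay in the densities. The deposited values are log2 RPM, scaled by the authors to reads inside the ISs of a table, with replicates pooled. Other deposited columns (a fold change category, peaks merged per site) were not used, and 0 columns of further samples were present. Whole reads were recovered from the log2 values for 100% of ISs (tolerance 0.001 reads). Sequence features came from NCBIM37, which is mm9, and gene context from GENCODE M1 (22380 protein-coding genes, 51733 transcripts). The log2 fold change was the treated minus the control value, and 1.5-fold in either direction was the threshold. Named ISs were, per table, the 4 highest and 4 lowest members whose mean density reached the median of the table, and the 4 densest members in the control. For the B cell list, the first 4 by control density were named. Some ISs and sequences that these choices name are not reported here. The members, lists and rules were chosen with earlier results of these data known, and the classes by purine share and repeat unit after seeing the fold changes. Python 3.11.15, pandas 2.3.3, scipy 1.17.1 and pysam 0.24.0 were used, and the counting of changed ISs was tested on simulated data.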

Additional observations from a re-analysis of the deposited data

How the results depend on the processing

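No paired analysis was possible because the deposited values are pooled over both replicates. Values without 1 library were not to be had from pooled columns either. Of 111 alternative values for 13 results, 76 stayed within the 95% interval over ISs of the reported value, 35 moved beyond it, and no median changed sign. The causes of these shifts were not tested beyond what each setting removes.

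In Rif1KO against WT the share of higher members was 0.00% with a GC threshold of 60%, with ISs called in both conditions, without the lower quartile of mean density, at 2-fold and without members of 70% or more purine, and 0.0473% on log2(RPM + 1). The share of lower members was 1.73% with a GC threshold of 50%, 3.74% with 60%, 0.459% with ISs called in both, 1.28% without the lower quartile and 0.236% at 2-fold. The median was -0.04 and -0.10 with the GC thresholds of 50% and 60%, and -0.16 for members of 80% or more purine with 60%.

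After MCM6 depletion the share of higher members was 5.86% and 10.4% with the GC thresholds of 50% and 60%, 8.07% over 25 kb from a TSS, 3.77% with ISs called in both, 5.33% on log2(RPM + 1), 2.15% at 2-fold and 3.40% without members of 70% or more purine, where lower members (4.21%) then outnumbered higher ones. The share of lower members was 2.92%, 5.88%, 2.14%, 1.89% and 0.260% with GC thresholds of 50% and 60%, ISs called in both, log2(RPM + 1) and 2-fold, and 3.01% without the lower quartile. The median was -0.10 with a GC threshold of 60% and without the lower quartile, and -0.12 with ISs called in both and without members of 70% or more purine. For members of 80% or more purine it was 0.95 with a GC threshold of 60%, 0.31 with ISs called in both, 0.25 from 70% purine and 0.37 without AGCAGG repeats. The settings on purine and repeats were chosen after seeing the data.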

Other observations

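AGCAGG repeats outside the class behaved alike. On the 16 autosomes 44 further ISs of the MCM6 table carried the repeat, and their median log2 fold change was 1.2, with 34 higher and 0 lower. Of these, 26 were far ISs under 55% GC with a median of 1.24. A further 3 ISs carried it in the Rif1KO table.

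Long genes held several members each, and these genes were picked after the counts were seen. The most members lay in Gm20388, an annotated locus of 4435 kb, with 42 in the Rif1KO table (median change -0.19, 0 higher and 0 lower) and 79 in the MCM6 table (median -0.16, 3 higher and 3 lower). Camta1, a transcription activator gene of 802 kb, held 10 members in the Rif1KO table with a median change of 0.05 and 9 in the MCM6 table with 0.01. Rbfox3, a neuronal splicing factor gene of 422 kb, held 9 with a median of -0.28 and 13 with -0.09. Csmd2 held 8 members of the MCM6 table, of which 2 were higher, the upper one by 1.80 on the log2 scale. Ulk4 held 9 there with a median of -0.01, of which 3 were higher. Over all ISs of the 16 autosomes 4.82% were higher and 1.5% lower in that table. In the Rif1KO table these shares were 0.945% and 1.35%. Counts within 1 gene are too small to be read as a result.

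Members within 1 kb of a TSS of a transcript that is not protein-coding had a median of -0.13 in Rif1KO (n = 82) and -0.06 after MCM6 depletion (n = 136), against -0.07 and -0.08 in the others.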
